A study of Mus musculus with 12 samples.

Results

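The E proteins, the Id proteins and the Ikaros family are transcription factors and inhibitors that set lymphoid fate in blood progenitors. The 10 genes described here, Tcf3, Tcf4, Tcf12, Id1, Id2, Id3, Ikzf1, Ikzf2, Ikzf3 and Ikzf5, were taken by symbol from a count table of 39017 mouse genes, and each was present once. RNA sequencing was done on 12 libraries of bone marrow LSK cells, which are lineage-negative, Sca1-positive and cKit-positive and hold the haematopoietic stem cells and early progenitors. The libraries form 4 labelled groups of 3.

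Libraries labelled NICD_TCFKO carried R26 N1IC lox/+, Tcf7 lox/lox and Mx1Cre. N1IC is the intracellular, active part of the Notch1 receptor, released by Cre from the Rosa26 locus. Libraries labelled NICD_TCFWT carried R26 N1IC lox/+ and Mx1Cre. Libraries labelled NOTCHWT_TCFKO carried Tcf7 lox/lox and Mx1Cre, and libraries labelled NOTCHWT_TCFWT were wild type. All mice, wild type included, were of a C57BL/6J; Sv/129 background and received poly(I:C) at 2 µg per g body weight, and Mx1Cre is an interferon-inducible Cre that acts in many tissues beside blood. Both N1IC groups were sorted through an added CD45.2+ eGFP+ gate, so the gate and the N1IC label cannot be told apart. Age is not in the labels, and nothing there says that replicates came from separate mice. Sex-linked expression, given below, differed within every group but NOTCHWT_TCFWT, so the libraries of those groups cannot all come from 1 mouse. Beyond that the source of each library is not known. The p-values measure the spread between these libraries, which may be technical in part.

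E proteins are basic helix-loop-helix factors that bind the E-box, CANNTG, as dimers, and in early progenitors they open lymphoid genes. Id proteins have the helix-loop-helix but no DNA-binding region, so they pair with E proteins and keep them off DNA. Ikaros family proteins are zinc finger factors that pair with each other, bind a core of GGGAA and bring co-repressors such as NuRD to their targets. In mouse thymocytes, E proteins help to start Notch1 and pre-T cell receptor genes, and Ikaros holds down Notch target genes.

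Gene positions are from GRCm38 (mm10, GENCODE M21), and each gene is annotated as protein coding. The E protein genes are Tcf3 (ENSMUSG00000020167) at chr10:80409514-80433647 on the minus strand, Tcf12 (ENSMUSG00000032228) at chr9:71842688-72111871 on the minus strand and Tcf4 (ENSMUSG00000053477) on chromosome 18. The Id genes are Id1 (ENSMUSG00000042745) at chr2:152736251-152737410 on the plus strand, Id2 (ENSMUSG00000020644) at chr12:25093799-25097140 on the minus strand and Id3 (ENSMUSG00000007872) at chr4:136143497-136145755 on the plus strand. The Ikaros family genes are Ikzf1 (ENSMUSG00000018654) at chr11:11685003-11772926 on the plus strand, Ikzf2 (ENSMUSG00000025997) at chr1:69531214-69687245 on the minus strand, Ikzf3 (ENSMUSG00000018168) at chr11:98464902-98546031 on the minus strand and Ikzf5 (ENSMUSG00000040167) at chr7:131388652-131410521 on the minus strand. Ikzf1 and Ikzf3 share chromosome 11.

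Levels are CPM, counts relative to library size, with library sizes scaled by the trimmed mean of M-values (TMM), and library totals ran from 30453271 to 43790674 counts. The genes that check the labels went against them in part. Tcf7, the gene targeted by the floxed allele, was at 603 ± 300 CPM in NICD_TCFKO, 5.50 ± 1.11 in NICD_TCFWT, 1.28 ± 1.31 in NOTCHWT_TCFKO and 14.8 ± 4.54 in NOTCHWT_TCFWT (SD, n = 3 each). Counts per gene also take in exons outside a floxed part, which the labels do not name. Hes1, a direct Notch target, was at 158 ± 56.4 CPM in NICD_TCFKO, 4.54 ± 2.94 in NICD_TCFWT, 7.67 ± 5.60 in NOTCHWT_TCFKO and 177 ± 47.8 in NOTCHWT_TCFWT, so it was high in the wild-type-labelled libraries and low in those labelled NICD_TCFWT. Groups are therefore named by label only, and every direction below is between libraries labelled so. NOTCHWT_TCFKO replicate 1 held Xist at 2156 CPM together with Y-linked genes at 154 CPM, the only library with both. Sex-linked expression was not balanced between groups. In replicates 1, 2 and 3, Y-linked genes had 355, 0.0726 and 0 CPM in NICD_TCFKO and 308, 328 and 0 in NICD_TCFWT. They had 154, 0 and 337 in NOTCHWT_TCFKO and 0.0865, 0 and 0.0233 in NOTCHWT_TCFWT. Differences from NOTCHWT_TCFWT are therefore partly mixed with this imbalance. Kit and Ly6a, which define the gate, were detected in all 12 libraries. Summed T cell markers (11 genes) ran from 441 to 1242 CPM in NICD_TCFKO, 30.2 to 51.9 in NICD_TCFWT, 22.7 to 44.0 in NOTCHWT_TCFKO and 361 to 402 in NOTCHWT_TCFWT. In NOTCHWT_TCFWT nearly all of this was Lck (210, 216 and 182 CPM), Trbc2 (146, 121 and 143) and Trbc1 (40.9, 20.6 and 41.9). There Cd3d, Cd3e, Cd3g, Cd2, Cd8a and Trac were each at most 0.1634 CPM. In NICD_TCFKO, Cd3g had 14.25, 89.8 and 94.55 CPM, while Cd2 and Trac were at most 0.498 CPM. In bulk RNA, fewer cells of a type and less RNA per cell cannot be told apart.

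Start-site sequences were matched in RefSeq (GRCm38.p6, 250 bases before to 50 after a start) for 6 of the 10 genes, in 9 windows. Those of Tcf3, Tcf12 and Id2 are shown because these 3 genes, with Ikzf2, gave the differences below. They are written 5′ to 3′ on the minus strand, with each E-box (CANNTG, which is also CANNTG on the other strand) in capitals, at chr10:80433586-80433885 for Tcf3, chr9:72111770-72112069 for the outermost Tcf12 start and chr12:25096043-25096342 for Id2.
Tcf3: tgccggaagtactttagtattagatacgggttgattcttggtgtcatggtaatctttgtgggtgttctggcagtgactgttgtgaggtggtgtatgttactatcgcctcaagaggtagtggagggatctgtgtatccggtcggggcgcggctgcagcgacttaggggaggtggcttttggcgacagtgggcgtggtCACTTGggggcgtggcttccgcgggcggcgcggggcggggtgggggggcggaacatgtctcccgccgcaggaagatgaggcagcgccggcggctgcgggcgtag
Tcf12: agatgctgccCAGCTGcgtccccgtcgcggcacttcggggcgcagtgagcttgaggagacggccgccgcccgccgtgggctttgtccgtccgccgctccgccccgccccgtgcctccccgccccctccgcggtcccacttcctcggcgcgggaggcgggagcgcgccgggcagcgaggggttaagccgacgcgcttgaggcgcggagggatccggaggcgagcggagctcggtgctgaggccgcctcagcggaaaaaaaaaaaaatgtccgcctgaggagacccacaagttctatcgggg
Id2: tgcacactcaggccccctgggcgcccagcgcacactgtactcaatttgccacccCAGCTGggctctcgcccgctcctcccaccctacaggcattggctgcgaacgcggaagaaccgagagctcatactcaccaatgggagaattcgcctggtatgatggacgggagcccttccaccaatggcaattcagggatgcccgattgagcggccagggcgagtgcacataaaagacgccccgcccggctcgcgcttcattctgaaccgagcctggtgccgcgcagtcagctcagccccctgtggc

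The Tcf3 window held 1 E-box, CACTTG, that begins 54 bases before the start. The Tcf12 window and the Id2 window each held the form CAGCTG, beginning 240 and 196 bases before their starts. Over 32841 promoter windows of the same length, 72.3% held CANNTG and 16.3% held CAGCTG, so an E-box in such a window is common. The Ikaros-type sequence TGGGAA, which contains GGGAA, was searched on both strands and was found in none of the 9 windows, against 25.6% of all windows. The core GGGAA itself occurred 2 times in window 2 of Ikzf1 and 1 time in that of Ikzf5. It was absent from the windows of Tcf3, Tcf12, Id2 and Id3, while 62.7% of all windows held it. Tcf12 has 3 start sites in this table, and counts per gene do not show which was used.

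**Figure D1:**
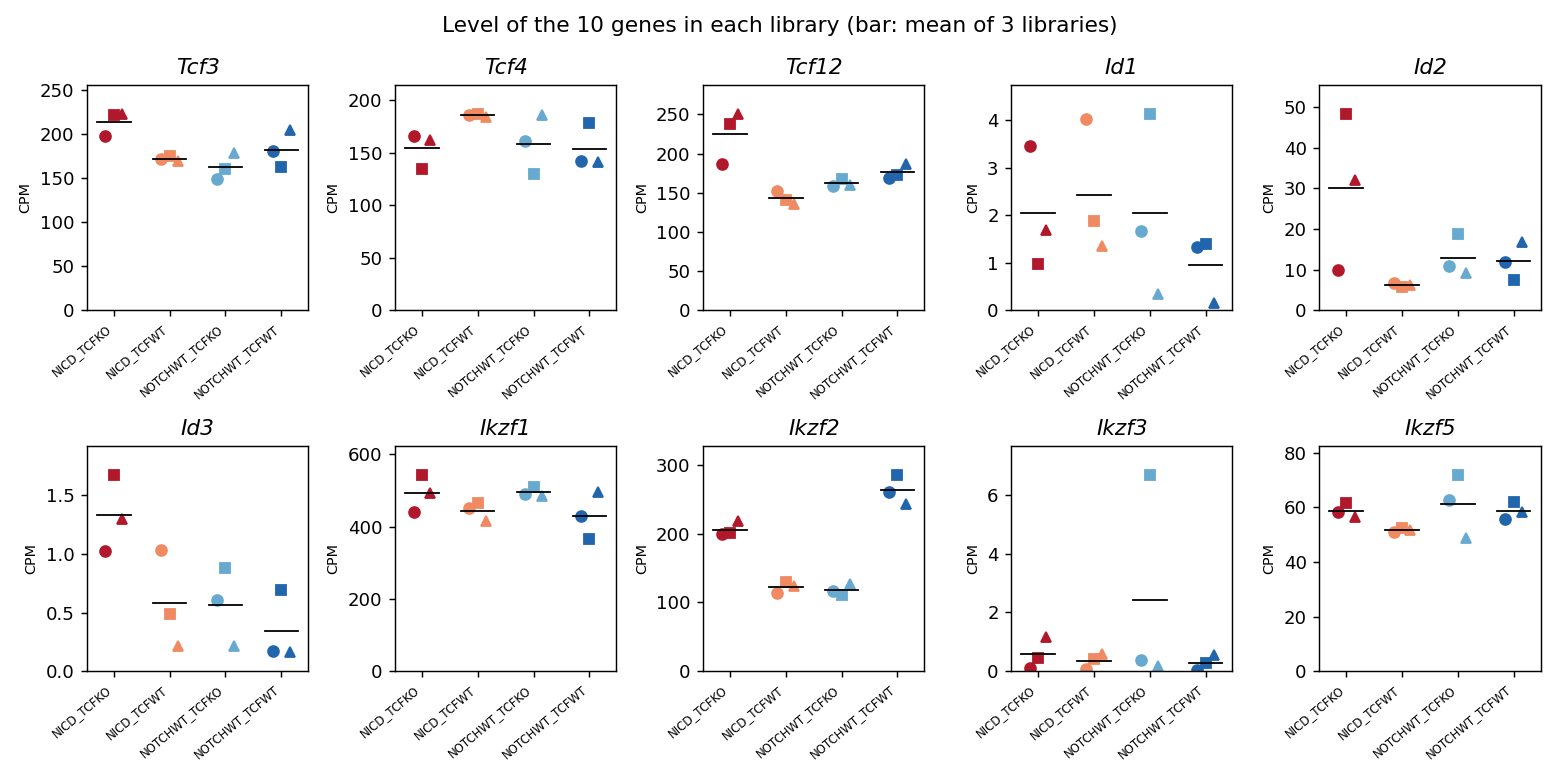
Level of each gene in CPM (linear axes from 0, one panel per gene) in the 12 libraries, by labelled group. Circles, squares and triangles are replicates 1, 2 and 3, and bars are means of 3. The 3 NICD_TCFKO libraries lie above the NICD_TCFWT libraries for Tcf3, Tcf12, Id2, Ikzf2 and Ikzf5, and below them for Tcf4. Ikzf2 is highest in NOTCHWT_TCFWT.

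Levels can be compared between genes only per length, here CPM per kb of union exon length. Ikzf1 stood highest with a mean of 80.6 CPM per kb over the 12 libraries, ahead of Tcf3 at 45.2 and Ikzf2 at 15.3. Tcf12 (11.4), Ikzf5 (10.1), Id2 (6.30) and Tcf4 (5.95) followed, and Id1 (1.61), Id3 (0.394) and Ikzf3 (0.104) were lowest. The ranges over libraries did not overlap between Ikzf1 (63.3 to 93.9) and Tcf3 (36.8 to 54.9), between Tcf3 and Ikzf2 (9.55 to 24.6), or between Tcf4 (4.73 to 6.80) and Id1 (0.141 to 3.55). All other neighbours in this order overlapped. With the longest transcript as the length, Tcf12 moved ahead of Ikzf2 and Tcf4 ahead of Ikzf5 and Id2. All 10 genes passed the filter on low counts.

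Tcf3 encodes E2A, the E protein that B and T lineage entry needs in mice. Tcf3 had 197, 221 and 222 CPM in NICD_TCFKO, 171, 174 and 169 in NICD_TCFWT, 149, 160 and 178 in NOTCHWT_TCFKO, and 180, 162 and 204 in NOTCHWT_TCFWT. The NICD_TCFKO libraries all lay above those labelled NICD_TCFWT and NOTCHWT_TCFKO and overlapped those labelled NOTCHWT_TCFWT. Tcf3 was higher in NICD_TCFKO than in NOTCHWT_TCFKO by 0.40 ± 0.094 on the log2 scale (SE; edgeR quasi-likelihood test with Benjamini-Hochberg adjustment over 16024 genes, adjusted p = 0.0156). Leaving out NICD_TCFKO replicate 3 or NOTCHWT_TCFKO replicate 1 ended that call (edgeR adjusted p = 0.0540 and 0.0593). Against NICD_TCFWT the difference was 0.31 ± 0.093, with an adjusted p of 0.0508 by edgeR, and it passed with NICD_TCFKO replicate 1, NOTCHWT_TCFWT replicate 2 or 3, or any NOTCHWT_TCFKO replicate left out (edgeR adjusted p from 0.0270 to 0.0477).

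Tcf12 encodes HEB, the E protein that pairs with E2A in thymocytes. Tcf12 had 187, 237 and 250 CPM in NICD_TCFKO, 152, 141 and 135 in NICD_TCFWT, 159, 168 and 160 in NOTCHWT_TCFKO, and 169, 173 and 187.0 in NOTCHWT_TCFWT. Replicate 1 of NICD_TCFKO was the lowest of its group and close to the highest NOTCHWT_TCFWT library. Tcf12 was higher in NICD_TCFKO than in NICD_TCFWT by 0.65 ± 0.10 log2 (edgeR, Benjamini-Hochberg adjusted p = 0.00264). It was also higher in NICD_TCFKO than in NOTCHWT_TCFKO, by 0.47 ± 0.10 (adjusted p = 0.00957 by edgeR). Against NOTCHWT_TCFWT the difference was 0.35 ± 0.10 in NICD_TCFKO, with an edgeR adjusted p of 0.0649, and without NICD_TCFKO replicate 1 it was 0.47 with 0.00514. NICD_TCFWT against NOTCHWT_TCFWT differed by -0.30 ± 0.10 (edgeR adjusted p = 0.0534), which became 0.0125 without NICD_TCFKO replicate 1, whose spread enters the shared fit, and 0.0404 without NICD_TCFKO replicate 3.

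Tcf4 encodes E2-2, the E protein that plasmacytoid dendritic cells need. Tcf4 had 166, 135 and 162 CPM in NICD_TCFKO, 186, 186 and 183 in NICD_TCFWT, 161, 130 and 185 in NOTCHWT_TCFKO, and 142, 178 and 141 in NOTCHWT_TCFWT. It was called in none of the 6 pairwise comparisons. Its difference was -0.27 ± 0.13 log2 between NICD_TCFKO and NICD_TCFWT and 0.27 ± 0.13 between NICD_TCFWT and NOTCHWT_TCFWT, with edgeR adjusted p of 0.215 and 0.188. Tcf3 made up 72.5% of the summed E protein level per kb in NICD_TCFKO, 72.7% in NICD_TCFWT, 71.2% in NOTCHWT_TCFKO and 72.5% in NOTCHWT_TCFWT. This share depends on the union exon length, which is 27382 bases for Tcf4 against 8577 for its longest transcript. Per kb of longest transcript, Tcf3 averaged 61.8 CPM, Tcf12 28.0 and Tcf4 19.0, so the share of Tcf3 is smaller by that length.

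Among the Id genes, Id2, which natural killer and innate lymphoid cells and some dendritic cells need, had the highest mean level per kb, though Id1 exceeded it in NICD_TCFWT replicate 1 (3.46 against 2.75 CPM per kb). Id2 had 10, 48.2 and 32.1 CPM in NICD_TCFKO, 6.70, 5.79 and 6.22 in NICD_TCFWT, 10.99, 18.8 and 9.12 in NOTCHWT_TCFKO, and 11.97, 7.54 and 16.9 in NOTCHWT_TCFWT. Replicates 2 and 3 of NICD_TCFKO lay above every other library, while replicate 1 lay among the libraries labelled NOTCHWT_TCFKO and NOTCHWT_TCFWT. Id2 was higher in NICD_TCFKO than in NICD_TCFWT by 2.27 ± 0.52 log2 (edgeR, Benjamini-Hochberg adjusted p = 0.0208). Leaving out NICD_TCFWT replicate 1, 2 or 3 or NICD_TCFKO replicate 2 or 3 ended this call (edgeR adjusted p from 0.0558 to 0.0805). Without NICD_TCFKO replicate 1, Id2 was called also against NOTCHWT_TCFKO (1.61 log2, edgeR adjusted p = 0.0146) and NOTCHWT_TCFWT (1.73, 0.0205), which with all libraries stood at 1.21 ± 0.50 (adjusted p = 0.124) and 1.31 ± 0.50 (adjusted p = 0.166).

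The same replicate 1 of NICD_TCFKO was also the lowest of its group in markers of dendritic cells and T cells, and the highest in LSK markers, at 2010 CPM against 1442 and 1611 in replicates 2 and 3. It was the one library of its group with Y-linked expression at 355 CPM and with low Xist (0.500 CPM, against 3521 and 3169). Its summed conventional dendritic cell markers (8 genes) were 221 CPM, against 767 and 494 in replicates 2 and 3, and Itgax, a dendritic cell integrin, was 62.6 against 142 and 134 CPM. Its summed T cell markers were 441 CPM, against 1242 and 946, and Cd3e, a chain of the T cell receptor complex, was 3.88 against 26.0 and 28.6. Summed NK and innate lymphoid markers (10 genes) were 265, 336 and 274 CPM in replicates 1, 2 and 3. Replicate 1 was also the lowest in summed B cell markers (120 CPM, against 203 and 300) and plasmacytoid markers (246, against 367 and 368.5). The same held for erythroid markers (277.5, against 364 and 429). It was not the lowest in granulocyte and monocyte, macrophage, megakaryocyte, mast cell and basophil, or endothelial and stromal markers. Of the 7 dendritic markers tested, 3 were higher and none lower in NICD_TCFKO than in NICD_TCFWT, and of the 9 T cell markers tested 9 were higher. Over all genes, 7.25% were called higher and 5.15% lower there. In NICD_TCFWT, whose mean Id2 was lowest (6.237 CPM), conventional dendritic cell markers summed to 72.0 to 97.8 CPM and T cell markers to 30.17 to 51.87. The other groups did not all follow Id2. In NOTCHWT_TCFKO, T cell markers were as low, at 22.7 to 43.98 CPM, with a mean Id2 of 12.98. In NOTCHWT_TCFWT, dendritic cell markers summed to 238.8 to 594.5 CPM, overlapping NICD_TCFKO, with a mean Id2 of 12.15 against 30.08. Most of that sum was Cd74 (342, 134 and 351 CPM in replicates 1, 2 and 3) and H2-Ab1 (185, 90.15 and 214). Xcr1 was at most 0.0577 CPM there, against 0.15, 7.02 and 3.54 in NICD_TCFKO. Clec9a was at most 0.07002 there, against 0.300, 8.98 and 4.63. Batf3 and Cd209a had no count in NOTCHWT_TCFWT, while Zbtb46 overlapped between these groups. The part of such cells in the Id2 difference was not tested. With a term for Xist-high libraries, a setting chosen after seeing the data, Id2 was 1.76 log2 higher in NICD_TCFKO than in NICD_TCFWT (edgeR adjusted p = 0.0489).

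Id1 and Id3, which BMP and pre-T or pre-B receptor signals induce in mice, had low counts. Id1 ran from 0.163 to 4.12 CPM (7 to 155 counts) and Id3 from 0.163 to 1.67 CPM (6 to 69 counts). Id3 averaged 1.33 ± 0.32 CPM in NICD_TCFKO, 0.579 ± 0.41 in NICD_TCFWT, 0.567 ± 0.33 in NOTCHWT_TCFKO and 0.344 ± 0.30 in NOTCHWT_TCFWT (SD, n = 3 each). The Id3 values of NICD_TCFKO and NOTCHWT_TCFWT did not overlap, yet the difference of 1.97 ± 0.72 log2 had an edgeR adjusted p of 0.139. Neither gene was called in any pairwise comparison. Id4, a further Id gene, had at most 0.0793 CPM in any library and was not tested.

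The summed Id level was small beside the summed E protein level. Per kb it was 11.4%, 28.7% and 19.9% of the E protein sum in the NICD_TCFKO libraries and 11.5%, 7.21% and 6.70% in the NICD_TCFWT libraries. It was 11.9%, 21.4% and 6.80% in NOTCHWT_TCFKO and 10.1%, 8.09% and 10.6% in NOTCHWT_TCFWT. The groups overlap, since replicate 1 of NICD_TCFKO lies at the level of the other groups, and no test was run on this share. With the longest transcript as the length, the mean share was lower. It was 14.1% in NICD_TCFKO, 5.55% in NICD_TCFWT, 9.03% in NOTCHWT_TCFKO and 6.71% in NOTCHWT_TCFWT, against 20.0%, 8.47%, 13.3% and 9.61% by union exon length. The summed E protein level averaged 73.0 ± 5.30 CPM per kb in NICD_TCFKO, 58.5 ± 1.00 in NICD_TCFWT, 56.4 ± 4.25 in NOTCHWT_TCFKO and 62.1 ± 5.06 in NOTCHWT_TCFWT (SD, n = 3 each).

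**Figure D2:**
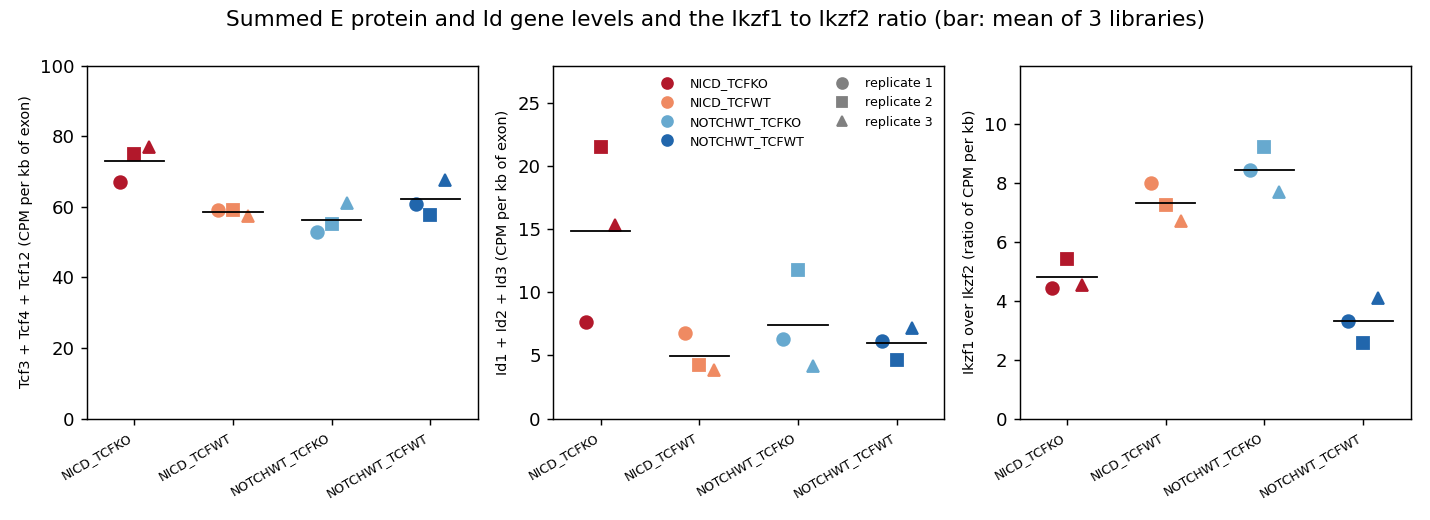
Summed E protein level, summed Id level (both in CPM per kb of exon) and the ratio of Ikzf1 to Ikzf2, per library and labelled group, with bars at means of 3 and axes from 0. Replicates 2 and 3 of NICD_TCFKO hold the highest Id sums, and the Ikzf1 to Ikzf2 ratio is lower in NICD_TCFKO and NOTCHWT_TCFWT (means of 4.80 and 3.33) than in NICD_TCFWT and NOTCHWT_TCFKO (7.32 and 8.46).

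Ikzf2, which encodes Helios, a family member known in regulatory T cells and stem cells, had the smallest adjusted p of the 10 genes in each pairwise comparison with a call. Ikzf2 had 199, 201 and 218 CPM in NICD_TCFKO, 113, 129 and 125 in NICD_TCFWT, 117, 111 and 127 in NOTCHWT_TCFKO, and 261, 285 and 244 in NOTCHWT_TCFWT. The libraries labelled NICD_TCFWT and NOTCHWT_TCFKO overlapped each other and lay below every library of the other groups. Ikzf2 was higher in NICD_TCFKO than in NICD_TCFWT by 0.75 ± 0.082 log2 and than in NOTCHWT_TCFKO by 0.80 ± 0.082 (edgeR with Benjamini-Hochberg adjustment, adjusted p = 0.000418 and 0.000134).

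Ikzf2 was also lower in NICD_TCFWT than in NOTCHWT_TCFWT, by -1.10 ± 0.083 log2, and lower in NOTCHWT_TCFKO than in NOTCHWT_TCFWT, by -1.16 ± 0.083 (edgeR, Benjamini-Hochberg adjusted p = 1.57e-05 and 8.77e-06). These 4 calls held in every alternative and with each library left out. Between NICD_TCFKO and NOTCHWT_TCFWT the difference was -0.35 ± 0.082 (edgeR adjusted p = 0.0294). That call was lost when NOTCHWT_TCFWT replicate 1 or 2, NICD_TCFKO replicate 1 or 2, or NOTCHWT_TCFKO replicate 1 was left out (edgeR adjusted p from 0.0507 to 0.0893). Notch1 was low in the same groups as Ikzf2. It stood at 774 ± 160 CPM in NICD_TCFKO, 180 ± 19.9 in NICD_TCFWT, 149 ± 46.7 in NOTCHWT_TCFKO and 571 ± 44.4 in NOTCHWT_TCFWT (SD, n = 3 each). The sum of the LSK markers (9 genes) was higher where Ikzf2 was lower, at 1442 to 2010 CPM in NICD_TCFKO, 3001 to 3483 in NICD_TCFWT, 2253 to 3745 in NOTCHWT_TCFKO and 1703 to 2003 in NOTCHWT_TCFWT. Not every marker followed the sum. Ly6a had 33.05, 33.7 and 45.9 CPM in NOTCHWT_TCFKO, against 120, 101 and 148 in NOTCHWT_TCFWT. Against NOTCHWT_TCFWT, 5 of the 9 were called higher and 0 lower in NICD_TCFWT, beside 10.6% and 9.75% of all genes. In NOTCHWT_TCFKO 4 were higher and 1 lower, beside 10.8% and 10.5%. Granulocyte and monocyte markers (14 genes) summed to 597 to 1681 CPM in NICD_TCFKO and 2316 to 7201 in NICD_TCFWT. They summed to 1851 to 10114 in NOTCHWT_TCFKO and 233 to 416 in NOTCHWT_TCFWT. Macrophage markers (11 genes) summed to 338 to 479 CPM in NOTCHWT_TCFKO and at most 23.1 elsewhere. T cell, conventional dendritic, NK and innate lymphoid, mast cell and basophil, and endothelial and stromal sums were instead lower where Ikzf2 was lower. The part of any of these markers in the Ikzf2 difference was not tested.

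Ikzf1, which encodes Ikaros itself, had 440, 542 and 492 CPM in NICD_TCFKO, 451, 466 and 416 in NICD_TCFWT, 491, 508 and 486 in NOTCHWT_TCFKO, and 430, 366 and 496 in NOTCHWT_TCFWT. The groups overlapped, except that the NOTCHWT_TCFKO libraries all lay above those labelled NICD_TCFWT (edgeR adjusted p = 0.424). Ikzf1 was called in no comparison. Its largest pairwise difference was 0.20 ± 0.11 log2, between NOTCHWT_TCFKO and NOTCHWT_TCFWT (edgeR adjusted p = 0.219). Ikzf1 was 75.1% of the summed Ikaros family level per kb in NICD_TCFKO, 79.6% in NICD_TCFWT, 80.2% in NOTCHWT_TCFKO and 69.1% in NOTCHWT_TCFWT. Ikzf2 was 15.7% in NICD_TCFKO, 10.9% in NICD_TCFWT, 9.55% in NOTCHWT_TCFKO and 21.3% in NOTCHWT_TCFWT.

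Ikzf3, which encodes Aiolos, a factor of B cells and maturing lymphocytes, was rare in all but 1 library. It had 0.100, 0.436 and 1.17 CPM in NICD_TCFKO, 0.0814, 0.411 and 0.595 in NICD_TCFWT, 0.396, 6.67 and 0.170 in NOTCHWT_TCFKO, and 0.0577, 0.264 and 0.537 in NOTCHWT_TCFWT. The high library, NOTCHWT_TCFKO replicate 2, was also the highest for Id1. It had Siglech, a plasmacytoid dendritic cell receptor, at 8.29 CPM, the highest of the 12 libraries. Summed B cell markers (8 genes) were 433 CPM there, against 221 and 370 in replicates 1 and 3, and plasmacytoid markers (12 genes) were 701, against 469 and 333. That library also stood highest of its group in other lineages, with erythroid markers (9 genes) at 1562 CPM, against 574 and 279, and granulocyte and monocyte markers (14 genes) at 10114 CPM, against 7553 and 1851. The part of any of these cells was not tested. Ikzf3 was called in no comparison, with 3.04 ± 1.41 log2 between NOTCHWT_TCFKO and NOTCHWT_TCFWT (edgeR adjusted p = 0.155), which was -0.04 without NOTCHWT_TCFKO replicate 2.

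Ikzf5, which encodes Pegasus, a more distant family member, had 58.4, 61.6 and 56.6 CPM in NICD_TCFKO, 51.1, 52.5 and 51.6 in NICD_TCFWT, 62.7, 71.9 and 48.9 in NOTCHWT_TCFKO, and 55.9, 62.1 and 58.5 in NOTCHWT_TCFWT. It was called in no comparison. Its exons share 4652 bases, or 81.3% of their length, with Pstk on the opposite strand, and whether the counting used strand is not given in the sources used here, so reads of the pair cannot be told apart. Ikzf4, which encodes Eos and was outside the 10 genes, was low, at 4.90 ± 1.80 CPM in NICD_TCFKO, 2.01 ± 0.92 in NICD_TCFWT, 1.29 ± 0.52 in NOTCHWT_TCFKO and 1.94 ± 0.44 in NOTCHWT_TCFWT. Ikzf4 was higher in NICD_TCFKO than in NOTCHWT_TCFKO by 1.93 ± 0.45 log2 (edgeR, Benjamini-Hochberg adjusted p = 0.0151).

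**Figure D3:**
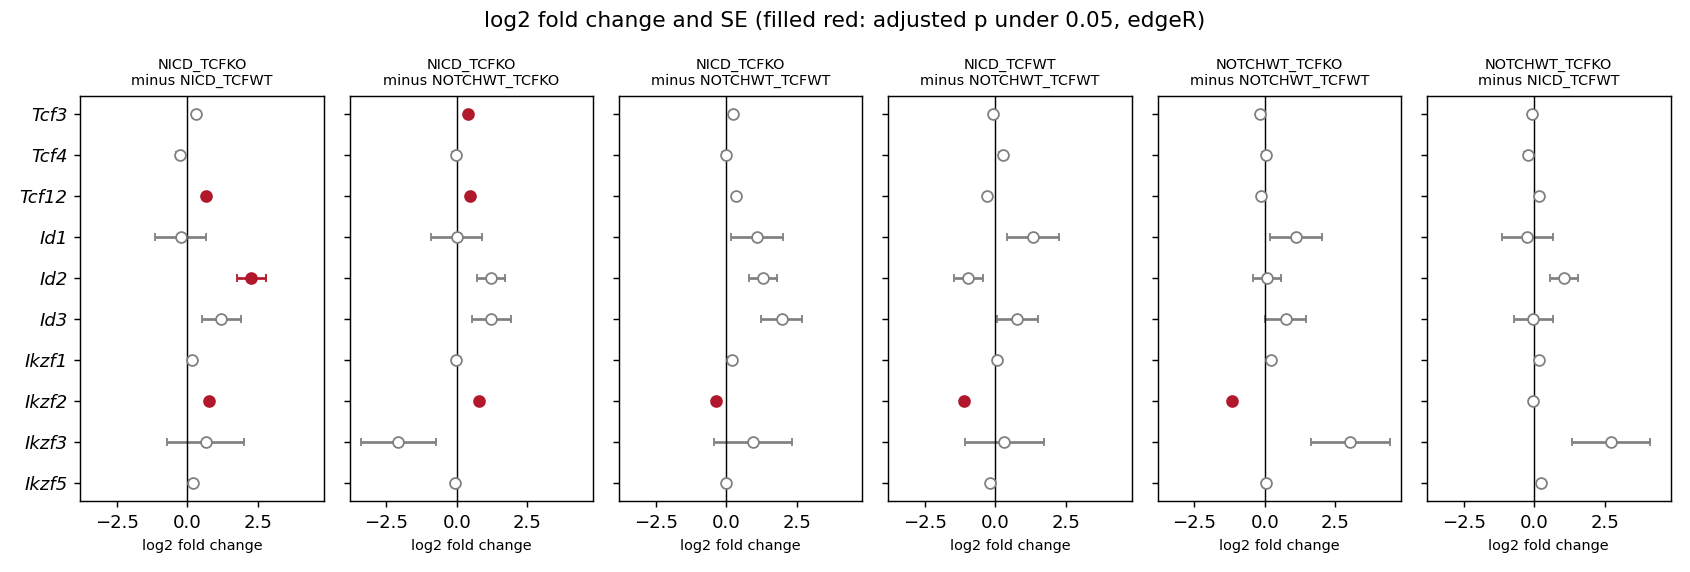
The log2 fold change of each gene (points, with SE bars) in the 6 pairwise comparisons of labelled groups. Filled red points passed an adjusted p under 0.05 in edgeR. Ikzf2 is filled in 5 of the 6 panels, and no gene is filled for NOTCHWT_TCFKO minus NICD_TCFWT.

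Read against all genes, the counts of called members were as follows. Between NICD_TCFKO and NICD_TCFWT, 3 of 10 were higher and none lower, while 12.4% of all tested genes were called (7.25% higher and 5.15% lower). Between NICD_TCFKO and NOTCHWT_TCFKO, 3 were higher, beside 18.4% of all genes called (10.3% higher and 8.06% lower). Only Ikzf2 was called between NICD_TCFKO and NOTCHWT_TCFWT, where 6.3% of all genes were called (4.01% higher and 2.3% lower). Ikzf2 alone was called, as lower, between NICD_TCFWT and NOTCHWT_TCFWT, beside 20.4% of all genes (10.6% higher and 9.75% lower). The same held between NOTCHWT_TCFKO and NOTCHWT_TCFWT, beside 21.3% of all genes (10.8% higher and 10.5% lower). With so few members, these shares describe the list and single out nothing. Between NOTCHWT_TCFKO and NICD_TCFWT none of the 10 was called by edgeR, DESeq2 or limma-voom, and 2.87% of all genes were called by edgeR (1.34% higher and 1.54% lower). Without adjustment, 0 members had p below 0.05 there in edgeR and in limma-voom, against 2 in DESeq2. The median log2 fold change of the 10 was 0.48 between NICD_TCFKO and NICD_TCFWT and 0.20 between NICD_TCFKO and NOTCHWT_TCFKO, while over all tested genes both medians were 0.00.

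The interaction asks whether the difference by Tcf7 label depends on the N1IC label. It was called for Tcf3, Tcf12, Id2 and Ikzf2, all positive, beside 27.4% of all genes (13.8% positive and 13.5% negative). In words, each of the 4 was higher in NICD_TCFKO relative to NICD_TCFWT than in NOTCHWT_TCFKO relative to NOTCHWT_TCFWT. Ikzf2 gave 1.91 ± 0.12 log2 and Tcf12 gave 0.77 ± 0.14 (edgeR, Benjamini-Hochberg adjusted p = 1.91e-06 and 0.00241). Tcf3 gave 0.48 ± 0.13 and Id2 gave 2.18 ± 0.71 (adjusted p = 0.0199 and 0.0456 by edgeR). The Id2 interaction missed the threshold in 9 of the 12 fits with a library left out (edgeR adjusted p from 0.0811 to 0.110), and held only without NOTCHWT_TCFWT replicate 2, NICD_TCFKO replicate 1 or NOTCHWT_TCFKO replicate 2. It was 1.403 with an edgeR adjusted p of 0.188 when libraries with Xist above 1000 CPM had their own term, a setting chosen after seeing the data.

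For genes whose highest and lowest group means differed at least 2-fold, the genes of nearest profile were found by the root mean square difference of centred log2 CPM over the 12 libraries, among 10250 genes. For Ikzf2 these were Zcchc2 at 0.0977 and Klhl18 at 0.113, against 0.499 for Ikzf2 set beside a flat profile. Zcchc2 had 160 ± 5.97 CPM in NICD_TCFKO, 91.3 ± 3.54 in NICD_TCFWT, 79.9 ± 4.81 in NOTCHWT_TCFKO and 185 ± 21.1 in NOTCHWT_TCFWT (SD, n = 3 each). For Id2 they were Ptgr1 (0.419) and Prkcb (0.427), beside 0.914 for a flat profile. The low-count members had looser matches, at 0.462 for Cdkn1a with Id3, 0.636 for Socs3 with Id1 and 0.973 for Tent5c with Ikzf3. The second-nearest genes were S100a4 (0.596), Klf4 (0.792) and Hebp1 (0.975) for Id3, Id1 and Ikzf3.

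**Figure D4:**
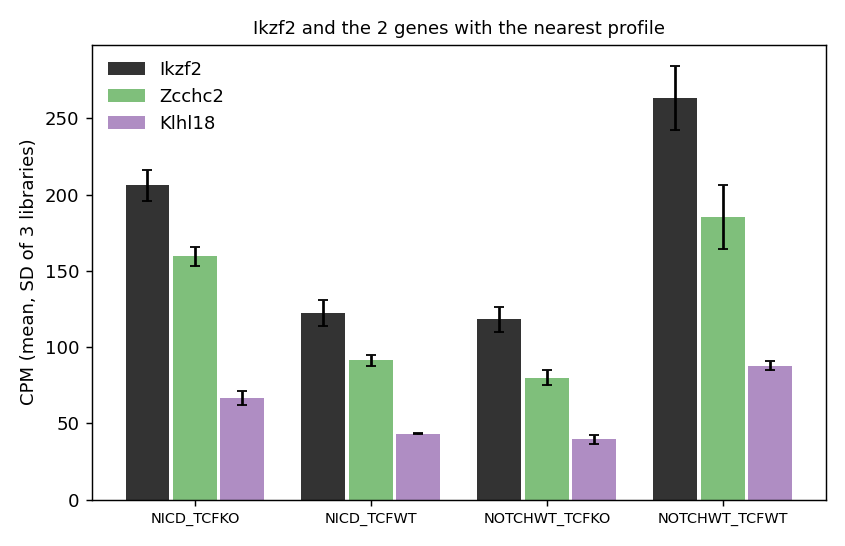
CPM (mean with SD of 3 libraries, axis from 0) of Ikzf2 and of its nearest genes by profile, Zcchc2 and Klhl18, in the 4 labelled groups. All 3 are lower in NICD_TCFWT and NOTCHWT_TCFKO than in NICD_TCFKO and NOTCHWT_TCFWT.

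The partners of E proteins, a list of 18 genes of which 16 were tested, include the TAL1, LMO and LDB1 proteins that sit in one complex with them. Of the 16, 2 were higher and 1 lower in NICD_TCFKO than in NICD_TCFWT, beside 12.4% of all genes called either way, so this count is near the background. In NOTCHWT_TCFKO against NOTCHWT_TCFWT 5 were higher and 6 lower, beside 21.3% of all genes. Lmo2, a bridging protein of that complex, had 242 ± 104 CPM in NICD_TCFKO, 763 ± 54.2 in NICD_TCFWT, 659 ± 95.2 in NOTCHWT_TCFKO and 253 ± 13.2 in NOTCHWT_TCFWT (SD, n = 3 each). It was high in the groups in which Ikzf2 was low. Lmo2 was lower in NICD_TCFKO than in NICD_TCFWT by -1.66 ± 0.26 log2 and higher in NOTCHWT_TCFKO than in NOTCHWT_TCFWT by 1.38 ± 0.26. Kat2b, an acetyltransferase co-activator, had 80.5 ± 7.27 CPM in NICD_TCFKO, 57.5 ± 1.66 in NICD_TCFWT, 67.1 ± 6.87 in NOTCHWT_TCFKO and 86.8 ± 4.38 in NOTCHWT_TCFWT. Gata2, a stem cell factor of the same complex, was lower in NICD_TCFKO (126 ± 65.5 CPM) than in NOTCHWT_TCFWT (343 ± 14.9 CPM), the sole partner called there. Ldb1 was higher in NICD_TCFKO (379 ± 38.4 CPM) than in NOTCHWT_TCFKO (277 ± 29.3 CPM). Lmo1 and Runx1t1 were low throughout, with group means of at most 5.22 and 0.382 CPM.

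Of the E protein target genes (20 listed, 18 tested), 5 were higher and none lower in NICD_TCFKO than in NICD_TCFWT, beside 7.25% and 5.15% of all genes. In NOTCHWT_TCFKO against NOTCHWT_TCFWT 8 were higher and 2 lower, beside 10.8% and 10.5% of all genes, and in the interaction 4 were positive and 5 negative, beside 13.8% and 13.5%. Their median log2 fold change was 0.21 and 1.00 in these pairwise comparisons and -0.62 in the interaction, against 0.00, 0.00 and 0.01 over all tested genes. Il7r, the interleukin-7 receptor, had 64.6 ± 28.6 CPM in NICD_TCFKO, 4.76 ± 2.69 in NICD_TCFWT, 12.5 ± 2.97 in NOTCHWT_TCFKO and 0.471 ± 0.23 in NOTCHWT_TCFWT. Dntt, the terminal transferase of early lymphoid cells, was at 143 ± 104 CPM in NICD_TCFKO, 242 ± 39.1 in NICD_TCFWT, 315 ± 183 in NOTCHWT_TCFKO and 7.53 ± 2.20 in NOTCHWT_TCFWT. Ptcra, the pre-T cell receptor chain, was at 8.52 ± 6.57 CPM in NICD_TCFKO and had no count in any library labelled NICD_TCFWT or NOTCHWT_TCFKO. Cxcr4 and Cdk6 were called too, Cxcr4 at 146 ± 41.4 CPM in NICD_TCFKO against 57.7 ± 2.74 in NOTCHWT_TCFWT, and Cdk6 for its interaction of 0.92 ± 0.15. These lists were chosen with earlier results of these data known and are no independent evidence of direction.

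The list of Id gene inducers (19 of 20 tested) holds receptors, Smads and immediate-early factors, and also the inhibitory Smad7. Of these, 3 were higher and 2 lower in NICD_TCFKO than in NICD_TCFWT, beside 7.25% and 5.15% of all genes. Smad7 was among the 3, so the counts give no direction of Id gene induction. Smad7, an inhibitor of TGF-beta and BMP signals, had 44.3 ± 1.29 CPM in NICD_TCFKO, 16.3 ± 1.51 in NICD_TCFWT, 20.8 ± 0.24 in NOTCHWT_TCFKO and 64.3 ± 12.4 in NOTCHWT_TCFWT (SD, n = 3 each). Smad7 was higher in NICD_TCFKO than in NICD_TCFWT by 1.44 ± 0.13 log2 and lower in NOTCHWT_TCFKO than in NOTCHWT_TCFWT by -1.63 ± 0.13. Tgfbr2, a TGF-beta receptor, had 128 ± 12.2 CPM in NICD_TCFKO, 92.8 ± 2.71 in NICD_TCFWT, 86.2 ± 14.7 in NOTCHWT_TCFKO and 152 ± 16.4 in NOTCHWT_TCFWT, so it too was lower in NICD_TCFWT and NOTCHWT_TCFKO. Tgfb1, a ligand, was lower in NICD_TCFKO (195 ± 9.95 CPM) than in NICD_TCFWT (259 ± 14.0 CPM).

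Of the co-repressor partners of Ikaros, 18 of 18 were tested, and 6 were higher and 1 lower in NICD_TCFKO than in NOTCHWT_TCFKO, beside 10.3% and 8.06% of all genes. None was higher and 4 were lower in NOTCHWT_TCFKO than in NOTCHWT_TCFWT, beside 10.8% and 10.5% of all genes. Only the count taken either way is near the background, at 21.3% of all genes. Chd3, a NuRD remodeller, had 489 ± 31.3 CPM in NICD_TCFKO, 397 ± 54.1 in NICD_TCFWT, 281 ± 84.3 in NOTCHWT_TCFKO and 538 ± 106 in NOTCHWT_TCFWT. Crbn, the substrate receptor through which lenalidomide directs Ikaros and Aiolos to degradation, had 52.8 ± 4.39 CPM in NICD_TCFKO, 47.8 ± 2.56 in NICD_TCFWT, 53.5 ± 2.57 in NOTCHWT_TCFKO and 69.0 ± 2.45 in NOTCHWT_TCFWT. Mta3 was higher in NICD_TCFKO (110 ± 14.3 CPM) than in NICD_TCFWT (67.2 ± 8.73) and NOTCHWT_TCFKO (70.9 ± 14.0). Ctbp2 was lower in NICD_TCFKO (29.4 ± 4.25 CPM) than in NICD_TCFWT (39.98 ± 1.52) and NOTCHWT_TCFWT (40.04 ± 1.18). Hdac2 in NICD_TCFWT against NOTCHWT_TCFWT (166 ± 4.17 against 199 ± 5.63 CPM), Sin3b in NICD_TCFKO against NOTCHWT_TCFKO (118 ± 0.19 against 89.3 ± 10.6 CPM) and Mta2 in the interaction (0.47 ± 0.10 log2) were called as well.

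Of 14 Ikaros target genes, 9 were higher and 2 lower in NICD_TCFKO than in NICD_TCFWT, beside 7.25% and 5.15% of all genes. In NOTCHWT_TCFKO against NOTCHWT_TCFWT 7 were higher and 4 lower, beside 10.8% and 10.5%. The list includes Notch targets and early T cell genes. Nrarp, a Notch feedback gene, had 68.8 ± 8.07 CPM in NICD_TCFKO, 6.15 ± 0.86 in NICD_TCFWT, 5.24 ± 0.94 in NOTCHWT_TCFKO and 114 ± 6.32 in NOTCHWT_TCFWT. Dtx1, another Notch target, had 121 ± 51.3 CPM in NICD_TCFKO, 0.124 ± 0.060 in NICD_TCFWT, 0.208 ± 0.19 in NOTCHWT_TCFKO and 85.4 ± 5.67 in NOTCHWT_TCFWT. Il2ra, the interleukin-2 receptor alpha chain of early T cells, had 802 ± 438 CPM in NICD_TCFKO and at most 3.38 CPM in any NOTCHWT_TCFWT library.

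Of 8 innate lymphoid regulators tested, 1 was higher in NICD_TCFKO than in NICD_TCFWT, near the 12.4% of all genes called there, and 3 were higher in NOTCHWT_TCFKO than in NOTCHWT_TCFWT, beside 10.8% of all genes called higher. None was lower in either. Gata3, the factor of T and innate lymphoid cells, had 51.2 ± 18.0 CPM in NICD_TCFKO, 11.4 ± 1.31 in NICD_TCFWT, 10.4 ± 2.25 in NOTCHWT_TCFKO and 14.9 ± 3.88 in NOTCHWT_TCFWT. Zbtb16, which encodes PLZF, had 21.5 ± 7.46 CPM in NICD_TCFKO, 20.5 ± 5.48 in NICD_TCFWT, 9.26 ± 1.901 in NOTCHWT_TCFKO and 0.496 ± 0.31 in NOTCHWT_TCFWT. Nfil3, a factor of innate lymphoid development, had 5.08 ± 0.73 CPM in NICD_TCFKO, 5.53 ± 0.34 in NICD_TCFWT, 8.66 ± 0.47 in NOTCHWT_TCFKO and 1.75 ± 0.21 in NOTCHWT_TCFWT. Zbtb16 and Nfil3 had their lowest levels in NOTCHWT_TCFWT.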

How the data were processed

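RNA was measured in 12 libraries of sorted LSK cells, 4 labelled groups of 3. Per the labels' protocols, RNA was isolated with PicoPure, made into TruSeq RNA and Nextera XT libraries and sequenced single-end at 75 nt. The submitters' processing notes name featureCounts 1.4.4 and the mm10 build beside HISAT2, cutadapt 1.9.1, edgeR 3.28.0 and limma, without saying which made which file; strand use is not given in the sources used here. The authors deposited raw counts per gene, and 12 of 12 per-library files equalled the joint table. The deposited normalized table was not used.

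From the counts, edgeR 4.0.16 (R 4.3.3) fitted 1 mean per group over all 12 libraries, with TMM scaling, the filterByExpr filter (16024 genes tested), a robust quasi-likelihood test, Benjamini-Hochberg adjustment over all tested genes and calls at an adjusted p under 0.05. The steps were tested on simulated data. CPM per kb used union exon lengths from GENCODE M21. Totals of 30453271 to 43790674 counts put the floor of 3 counts at 0.0992 CPM in the shallowest library, for counting error only. Alternatives were DESeq2 1.42.0, limma-voom (limma 3.58.1), RLE scaling, other filters, a replicate block, a covariate that sets apart NOTCHWT_TCFWT 3, NICD_TCFWT 3 and NICD_TCFKO 3, because S numbers in the titles recur (what these numbers mark is not stated), a covariate for Xist, fits of the compared groups alone, and each library left out.

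The 10 genes, the pathway lists and the marker lists were chosen with earlier results of these data known. Genes named from the lists are the 2 called members with the smallest p in each comparison. Genes of nearest profile are the 2 with the smallest root mean square difference, among tested genes with a mean of at least 5 CPM, without predicted genes, pseudogenes and receptor segments.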

Additional observations from a re-analysis of the deposited data

Results flagged for a closer look

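The interaction of the Tcf7 label and the N1IC label passed the edgeR test for 4 of the 10 genes, so with all libraries their differences by Tcf7 label differed between the labelled Notch backgrounds. Ikzf2 gave 1.91 log2, Id2 gave 2.18, Tcf12 gave 0.77 (0.775 before rounding) and Tcf3 gave 0.48 (0.482). The Id2 interaction is not settled: it missed the threshold in limma-voom (adjusted p = 0.140), without a filter on low counts (edgeR adjusted p = 0.0813) and in 9 of the 12 fits with a library left out. For Ikzf2, the NICD_TCFKO libraries lay above the NICD_TCFWT libraries, while the NOTCHWT_TCFKO libraries lay below the NOTCHWT_TCFWT libraries. Since Tcf7 and Notch1 levels went against the labels in part, these are differences between labelled groups only.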

How the results depend on the processing

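Over 21 alternatives, 1399 of 1453 values of single genes stayed on their side of the threshold, 32 lost the call and 22 gained one. In 51 of the 1453 the sign turned, and 0 of these were differences called with all libraries. The number of members called moved as follows. With DESeq2 it was 2 for NICD_TCFWT minus NOTCHWT_TCFWT and 3 for NICD_TCFKO minus NOTCHWT_TCFWT, against 1 and 1 in edgeR. With only the compared groups fitted it was 3, 1 and 0 for NICD_TCFWT minus NOTCHWT_TCFWT, NICD_TCFKO minus NOTCHWT_TCFKO and NICD_TCFKO minus NOTCHWT_TCFWT, against 1, 3 and 1. With a term for Xist-high libraries, chosen after seeing the data, it was 2 for NICD_TCFKO minus NOTCHWT_TCFWT. The cause was not tested.

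With each library left out, members called ran from 1 to 2 for NICD_TCFWT minus NOTCHWT_TCFWT, 2 to 4 for NICD_TCFKO minus NICD_TCFWT, 2 to 4 for NICD_TCFKO minus NOTCHWT_TCFKO, 0 to 2 for NICD_TCFKO minus NOTCHWT_TCFWT, 0 to 1 for NOTCHWT_TCFKO minus NICD_TCFWT (Ikzf5, without NOTCHWT_TCFKO replicate 3) and 3 to 4 for the interaction, and stayed at 1 for NOTCHWT_TCFKO minus NOTCHWT_TCFWT.

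Same-numbered libraries deviated from their group means with correlations from -0.404 to 0.451. For replicates 1, 2 and 3 they were 0.314, 0.1 and 0.451 between NICD_TCFWT and NICD_TCFKO. Between NICD_TCFWT and NOTCHWT_TCFKO they were 0.073, -0.277 and -0.404. With 3 libraries per group, these values cannot tell whether the numbers pair the samples. The replicate block left 0 members called for NICD_TCFKO minus NOTCHWT_TCFWT, where Ikzf2 had an edgeR adjusted p of 0.0543, and put that of the Id2 interaction at 0.0736. Over all genes it gave 132 higher and 159 lower for NOTCHWT_TCFKO minus NICD_TCFWT, against 214 and 246 without it.

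Over all genes, DESeq2 called 1468 lower (825 in edgeR) for NICD_TCFKO minus NICD_TCFWT, 1998 lower (1292) for NICD_TCFKO minus NOTCHWT_TCFKO, 1160 higher and 865 lower (642 and 368) for NICD_TCFKO minus NOTCHWT_TCFWT, and 918 and 737 (214 and 246) for NOTCHWT_TCFKO minus NICD_TCFWT. Fits of the compared groups alone called 724 and 514 (1650 and 1292) for NICD_TCFKO minus NOTCHWT_TCFKO and 360 and 178 (642 and 368) for NICD_TCFKO minus NOTCHWT_TCFWT, and the Xist term 687 lower (368) there. With a library left out, higher and lower calls ran from 65 to 1097 and 96 to 968 for NOTCHWT_TCFKO minus NICD_TCFWT, 564 to 1463 and 332 to 1225 for NICD_TCFKO minus NICD_TCFWT, 861 to 1786 and 649 to 1516 for NICD_TCFKO minus NOTCHWT_TCFKO, 251 to 781 and 117 to 504 for NICD_TCFKO minus NOTCHWT_TCFWT, 1073 to 1946 and 873 to 1698 for NICD_TCFWT minus NOTCHWT_TCFWT, and 1118 to 1993 and 1008 to 1854 for NOTCHWT_TCFKO minus NOTCHWT_TCFWT. Tcf3 in NICD_TCFKO minus NICD_TCFWT passed with RLE scaling (edgeR adjusted p = 0.0473), DESeq2 (0.0129) and only these groups (0.0306). Its call against NOTCHWT_TCFKO and that of Tcf12 were lost with only those groups (0.0533 and 0.0712). The Id2 interaction was lost with no filter on low counts (edgeR adjusted p = 0.0813), in limma-voom (0.140) and with the covariate for recurring S numbers (0.0757). The Id2 call against NICD_TCFWT was lost in limma-voom (adjusted p = 0.0709) and with only these groups (edgeR adjusted p = 0.0564). Depth limits Id1, Id3 and Ikzf3, with as few as 7, 6 and 2 counts in a library.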
